A study of Mus musculus with 18 samples.

Results

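Acute-phase genes are switched on in liver cells by inflammation, and 10 of them were followed here in peak lists of mouse liver RNA: the serum amyloid A genes *Saa1*, *Saa2*, *Saa3* and *Saa4*, *Hp*, *Orm1*, *Lcn2*, *Crp*, *Hamp* and *Itih4*. They were chosen by name from the 21951 protein-coding genes of the GENCODE M21 annotation (genome build GRCm38); the rule uses no value measured here, although earlier results of these data were known when the list was made. Of the 10 genes, 7 had at least 1 peak on their own strand that touched an exon in any of the 18 libraries, and 5 had one in undigested RNA.

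The study compared livers of mice aged 8 to 9 days that lacked both the RNA-editing enzyme ADAR1 and the signalling adaptor MAVS (*Adar*-/-; *Mavs*-/-, called editing-deficient below) with livers of *Mavs*-/- mice. The double mutants came from a cross of the *Adar* and *Mavs* lines and were backcrossed to Bl6J. The controls therefore also lack MAVS, which relays the signal of the double-stranded RNA sensor MDA5. Sample titles call these controls wild-type, while the genotype field gives *Mavs*-/-, and the genotype field was followed. Each genotype had 3 libraries of each of 3 fractions: undigested total RNA (Input), refolded RNA digested with RNase A/T1 (RNase only), and RNA digested in the same way after incubation with recombinant mouse MDA5 without its CARD domains (MDA5-protected).

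Hepatocytes make most acute-phase proteins when cytokines such as interleukin-6 and interleukin-1 reach the liver and activate STAT3, NF-κB and C/EBP factors. Positive acute-phase proteins rise in plasma and take part in opsonisation, the scavenging of haemoglobin and iron, and protease inhibition. In a liver without inflammation some of their genes, such as *Hp* and *Itih4*, are expressed at a high basal level, whereas others, such as *Saa1*, *Saa2* and *Lcn2*, are close to silent.

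A peak is a stretch where the reads of 1 library rise above background, or, in the digested libraries, above the Input of the genotype. The measure compared was the number of exonic bases of a gene that lay under peaks of its own strand. The Input libraries held 4326 to 6625 peaks in *Mavs*-/- and 6991 to 8948 in editing-deficient liver, so the genotypes did not overlap in the number of peaks. All 8 hepatocyte markers had Input peaks in every Input library. *Adar* had an exonic Input peak in none of the 3 *Mavs*-/- and in 2 of the 3 editing-deficient libraries, and *Mavs* in none of the 6. The labels do not say which exons the alleles lack, so these peaks do not check the genotypes. The study describes its extractions as biological triplicates, but neither it nor the labels say which libraries share an animal, so the p-values measure the spread between these libraries. In bulk RNA, fewer cells of a type and less RNA per cell cannot be told apart.

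**Figure D1:**
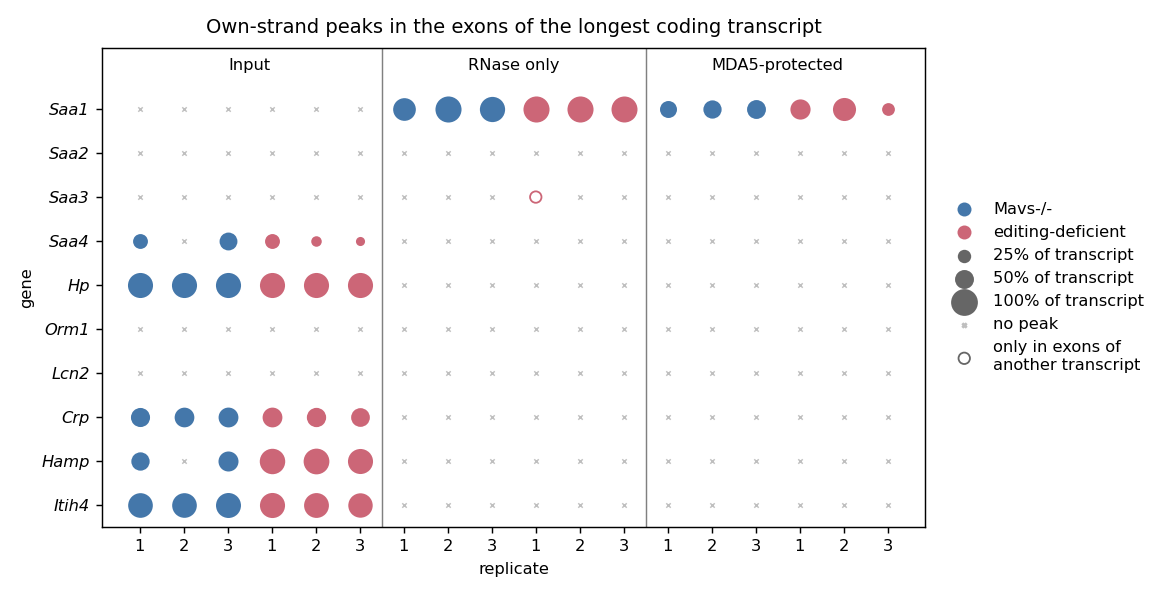
Peaks of the 10 genes (rows) in the 18 libraries (columns, by fraction, genotype and replicate). The area of a filled circle is the percentage of the longest coding transcript under own-strand peaks, an open circle is a peak only in exons of another transcript, and a cross is no exonic peak. *Hp*, *Crp* and *Itih4* have circles in all 6 Input libraries and in no digested library, while *Saa1* has circles in all 12 digested libraries and in no Input library.

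*Hamp* was the only one of the 10 genes whose Input coverage did not overlap between genotypes. It encodes hepcidin, the liver hormone that makes cells take in and degrade the iron exporter ferroportin, and its transcription follows both interleukin-6 and bone morphogenetic protein signals. The gene lies at chr7:30942368-30944032 on the minus strand and has 410 exonic bases in 3 exons. The *Mavs*-/- Input libraries 1, 2 and 3 had 192, 0 and 229 exonic bases of *Hamp* under peaks. The editing-deficient libraries had 370, 379 and 359. All 3 editing-deficient libraries thus lay above all 3 *Mavs*-/- libraries, and *Mavs*-/- replicate 2 had no *Hamp* peak.

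The mean coverage of *Hamp* was 140.3 ± 122.9 bases in *Mavs*-/- and 369.3 ± 10.0 in editing-deficient Input (SD, n = 3 each), a difference of 229 bases. The two-sided exact permutation test gave p = 0.10, the smallest value that 3 against 3 libraries allow, and 0.480 after Benjamini-Hochberg adjustment over the 4331 genes tested. Of those 4331 genes with an exonic Input peak, 17.8% were higher in every editing-deficient library and 3.02% lower. With equal numbers of peaks taken from each library these shares were 11.6% and 7.17%, and *Hamp* still did not overlap. Among the members, 1 of the 5 with an Input peak was higher and 0 were lower, a share near that of all genes. With limma on log2(bases + 10), the difference of *Hamp* was 2.27 ± 1.36 on that scale (SE) with an adjusted p of 0.467. No member passed an adjusted p of 0.05 with limma, where 5.43% of the genes tested were called higher and 0.831% lower.

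**Figure D2:**
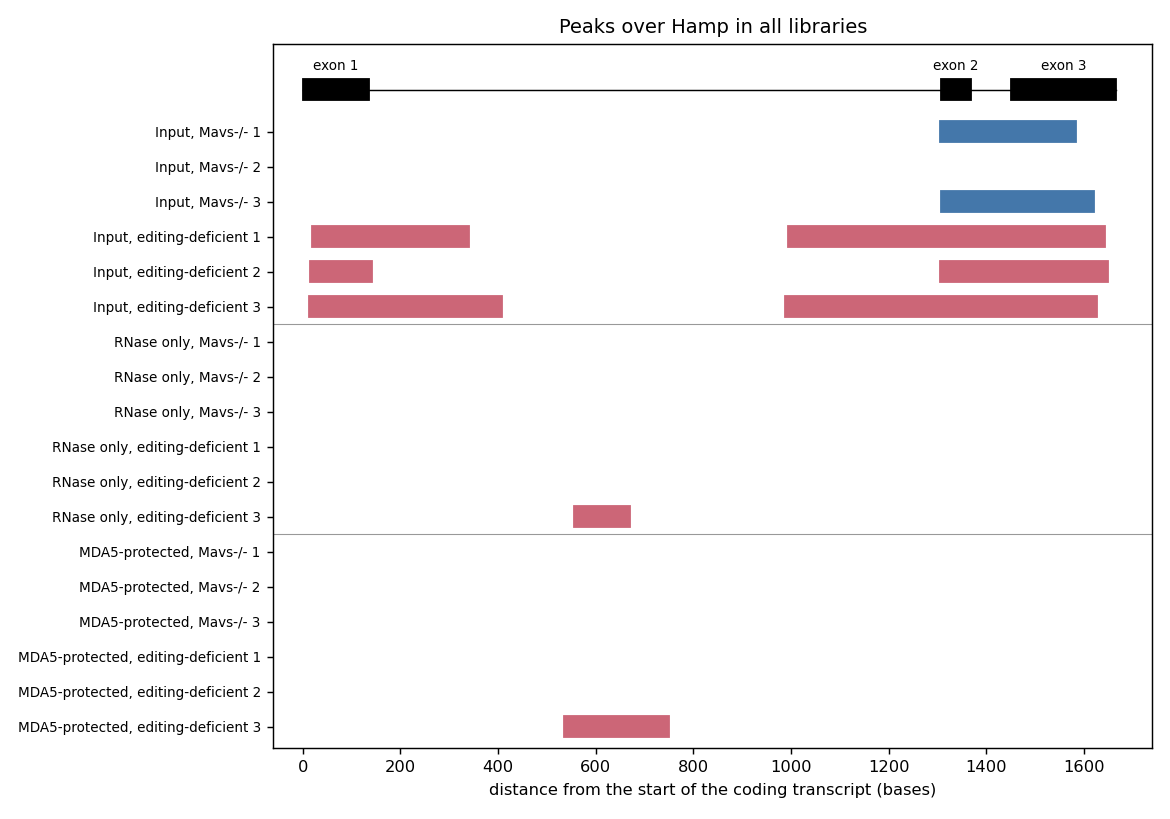
Own-strand peaks over *Hamp* in all 18 libraries, by distance in bases from the start of the coding transcript; black boxes are exons. Exon 1 lies under an Input peak in the 3 editing-deficient libraries only, and the digested libraries have 2 peaks, both in the first intron and both in editing-deficient replicate 3.

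The stretches of *Hamp* under Input peaks also differed. In *Mavs*-/- replicates 1 and 3, a single peak of 279 and 313 bases covered parts of exons 2 and 3. Their areas of 522.2 and 709.4 were not far above the smallest area in the lists, 500.008. A missing peak over exon 1 in *Mavs*-/- therefore does not show that exon 1 RNA was absent. In each of the editing-deficient libraries a second peak covered part of exon 1, and the coding sequence was covered completely. These editing-deficient peaks ran into the introns in replicates 1 and 3, where 602 and 675 intronic bases were covered, against 92 in replicate 2. In the *Mavs*-/- libraries 87, 0 and 84 intronic bases were covered. Where a peak had to lie in exons for at least 50% of its length, the peaks of editing-deficient replicates 1 and 3 dropped out and the mean difference became -14 bases, so the separation of the genotypes at *Hamp* did not hold under that rule.

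The strength of the *Hamp* peaks was compared as a rank, because the area that Genrich gives a peak grows with sequencing depth. Within each Input library, the summed peak area of *Hamp* lay at the percentiles 5.27, 0 and 30.5 of the genes with a peak in *Mavs*-/-, where 0 stands for no peak. In editing-deficient liver it lay at 70.0, 73.2 and 87.4. The ranks did not overlap, with means of 11.9 ± 16.3 and 76.8 ± 9.26 (SD, n = 3 each), an exact permutation p of 0.10 and an adjusted p of 0.425. Over all genes tested, 19.6% ranked higher and 3.86% lower in every editing-deficient library.

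Mice carry a near-identical neighbour, *Hamp2*, so the letters that tell them apart matter for assigning reads. The coding sequences of *Hamp* and *Hamp2* are 92.5% identical, and 13 of the 336 stretches of 75 bases in the *Hamp* transcript, the read length, also occur unchanged in *Hamp2*. The sequences across the splice junctions of exons 1 and 2 and of exons 2 and 3 show how close they are. In the lines below each sequence takes 15 bases from either exon, 5′ to 3′ from the GENCODE M21 transcripts, and capitals mark the bases that differ.
Hamp, exons 1 and 2: tatctccaTcaacagatgagacagactaca
Hamp2, exons 1 and 2: tatctccaGcaacagatgagacagactaca
Hamp, exons 2 and 3: agggcagacattgcgatAccaatgcagaag
Hamp2, exons 2 and 3: agggcagacattgcgatCccaatgcagaag
The first *Hamp* sequence joins chr7:30943897-30943911 to chr7:30942710-30942724 and the second joins chr7:30942665-30942679 to chr7:30942567-30942581, all on the minus strand. Each junction differs at 1 of its bases. *Hamp2* itself had an Input peak only in editing-deficient replicate 3, over 85 bases, where *Hamp* was also ranked highest.

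Hepcidin responds to iron and to the demand of red cell production, so the iron genes and red cell markers are given beside *Hamp*. Of 14 genes of iron and hepcidin control, 11 had an Input peak, 2 were higher in every editing-deficient library (18.2%, against 17.8% of all genes tested) and 1 was lower (9.09%, against 3.02%). *Bmp2*, a ligand of endothelial cells that stimulates hepcidin, had no Input peak in *Mavs*-/- and 22.1%, 14.0% and 16.9% of its exonic bases covered in the editing-deficient libraries. The bone morphogenetic protein co-receptor hemojuvelin (*Hjv*, named *Hfe2* in the annotation) went from 20.2%, 0% and 38.4% to 73.9%, 53.3% and 57.1%. *Tfrc*, the transferrin receptor of dividing and red cell precursors, went from 8.68%, 3.27% and 25.7% to 0 in all 3. All 3 genes had an exact permutation p of 0.10.

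Of the 9 erythroid markers found in the annotation, 7 had an Input peak and 4 were lower in every editing-deficient library (57.1%, against 3.02% of all genes tested), with none higher. The erythroid list had 6 to 7 genes with a peak and 3887 to 7899 summed exonic bases in *Mavs*-/- Input, and 4 to 5 genes and 1933 to 3589 bases in editing-deficient Input. *Alas2*, which makes haem in red cell precursors, covered a mean of 20.1% of its exonic bases in *Mavs*-/- and had no peak in editing-deficient liver. *Hba-a2*, an alpha globin gene, had 99.3%, 97.5% and 97.8% of its exonic bases covered in *Mavs*-/- and 78.7%, 76.0% and 70.2% in editing-deficient liver, and *Hba-a1* and *Hbb-bt* had means of 78.3% and 86.0% against 67.8% and 75.4%. The part of these red cell transcripts in the *Hamp* difference was not tested.

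**Figure D3:**
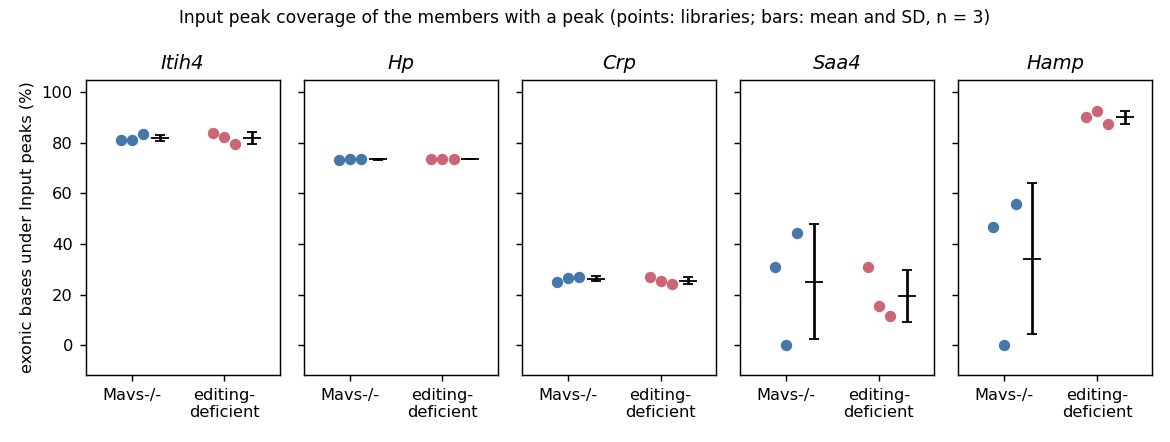
Percentage of exonic bases under Input peaks for the 5 members with an Input peak; points are libraries and bars the mean and SD of 3 libraries. *Itih4*, *Hp* and *Crp* overlap between the genotypes with a narrow spread, *Saa4* overlaps with a wide one, and *Hamp* is between 0 and 55.9% in *Mavs*-/- and between 87.6% and 92.4% in editing-deficient liver.

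The other 4 genes with Input peaks overlapped between genotypes. *Hp* encodes haptoglobin, which binds free haemoglobin, and lies at chr8:109575128-109579172 on the minus strand. Its Input peaks covered 1178, 1181 and 1181 exonic bases in *Mavs*-/- and 1180, 1181 and 1181 in editing-deficient liver (exact permutation p = 1). With 99.5% of the coding sequence under peaks in every Input library, coverage could hardly go higher, and the peak area is given as well. The *Hp* area lay at the percentiles 96.9, 96.0 and 97.4 in *Mavs*-/- and 97.7, 97.8 and 97.3 in editing-deficient liver, which overlapped (exact permutation p = 0.20). In editing-deficient replicates 1 and 2 the peaks over exons 2, 3 and 4 were joined across the introns into 1 peak of 1178 and 884 bases.

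*Itih4*, an inter-alpha-trypsin inhibitor heavy chain found in plasma, lies at chr14:30886476-30902353 on the plus strand. Its 103 Input peaks, 16 to 18 of them touching exons in each library, lay over 20 to 22 of the 23 exons of the coding transcript. They covered 2996, 2993 and 3075 exonic bases in *Mavs*-/- and 3101, 3042 and 2935 in editing-deficient liver. The editing-deficient libraries spread more widely and held both the lowest and the highest value, and the means differed by 4.67 bases (exact permutation p = 1). The 3′ UTR was covered to 33.0% to 54.3% and the coding sequence to 96.0% to 98.9%.

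*Crp* encodes C-reactive protein, a pentraxin that is a weak acute-phase reactant in mice, and lies at chr1:172698055-172833031 on the plus strand. Its longest coding transcript ends at 172699962, and a longer non-coding transcript accounts for the rest of the gene. In Input a single peak of 831 to 1139 bases covered 862, 918 and 930 exonic bases in *Mavs*-/- and 926, 880 and 829 in editing-deficient liver. The genotypes overlapped (exact permutation p = 0.60), and the peaks held 90.5% to 100% of the coding sequence but 19.8% to 34.0% of the 3′ UTR.

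*Saa4*, the constitutive member of the serum amyloid A family, lies at chr7:46727998-46732603 on the minus strand and was the most variable of the 4. Its Input peaks covered 644, 0 and 932 exonic bases in *Mavs*-/- and 648, 323 and 242 in editing-deficient liver. The mean difference of -121 bases was far smaller than the SD of 477.2 bases in *Mavs*-/- (exact permutation p = 0.80), and without *Mavs*-/- replicate 3 it was 82.3 bases. All 6 *Saa4* peaks touched only the last of its 4 exons, with areas of 504.2 to 1149, the lowest of them next to the smallest area in the lists, 500.008. *Mavs*-/- replicate 2, which had neither a *Saa4* nor a *Hamp* peak, was also the Input library with the fewest peaks.

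Per base of the coding transcript, *Hp* had the highest mean peak area in Input, 12.6 ± 1.50 (SD, n = 6), followed by *Itih4* with 8.54 ± 0.491. *Hamp* had 4.97 ± 4.97, *Crp* 1.69 ± 0.443 and *Saa4* 0.330 ± 0.209. *Hp* and *Itih4* did not overlap, with 10.9 to 14.4 against 8.10 to 9.40, and neither did *Crp* (1.14 to 2.20) with *Itih4* or with *Saa4* (0 to 0.567). *Hamp* had 1.27, 0 and 1.73 in *Mavs*-/- and 6.76, 6.85 and 13.2 in editing-deficient liver. It lay below *Crp* in all 3 *Mavs*-/- libraries and above *Crp* in all 3 editing-deficient ones. Against *Itih4* it lay below in all 3 *Mavs*-/- libraries and in editing-deficient replicates 1 and 2. Only in editing-deficient replicate 3 did *Hamp* lie above *Itih4* and *Hp*. The whole area of each peak touching an exon was counted, its intronic part included. In editing-deficient replicate 3 the *Hamp* peaks held 359 exonic and 675 intronic bases, so its value there is not that of exons alone. These areas are not scaled for depth and describe the order within these libraries.

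No Input peak was found for *Saa1*, *Saa2*, *Saa3*, *Orm1* or *Lcn2* in either genotype. *Saa2* (chr7:46751790-46754313, plus strand), the twin of *Saa1*, and *Orm1* (chr4:63344560-63348163, plus strand), the plasma carrier protein orosomucoid, lacked peaks throughout the 18 libraries. The same was true of *Lcn2* (chr2:32384633-32388252, minus strand), which encodes lipocalin 2, a protein that binds bacterial siderophores. The orosomucoid copies *Orm2* and *Orm3* had no Input peak either. Of the *Orm1* transcript, 13.8% of its stretches of 75 bases also occur in *Orm2*, so reads from these genes can be ambiguous. The lists hold only stretches above the threshold of the peak caller, so transcripts below it are not shown to be absent.

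Unlike the hepatocyte markers, *Saa1* had exonic peaks in all 12 digested libraries and none in Input. Serum amyloid A1 is a lipoprotein-associated protein that liver cells secrete in inflammation and that intestinal epithelium also makes. The gene lies at chr7:46740497-46742980 on the minus strand, with a coding transcript of 609 bases in 4 exons of 32, 92, 139 and 346 bases. In the RNase only fraction its peaks covered 440, 591 and 551 exonic bases in *Mavs*-/- and 611, 588 and 611 in editing-deficient liver. The genotypes overlapped, because *Mavs*-/- replicate 2 lay above editing-deficient replicate 2.

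The means were 527.3 ± 78.2 bases in *Mavs*-/- and 603.3 ± 13.3 in editing-deficient liver (SD, n = 3 each), and the difference of 76 bases had an exact permutation p of 0.20 (adjusted p = 1 over 3056 genes). Of these genes, 2.42% were higher and 0.818% lower in every editing-deficient library, and 0 of the 2 members with a peak in this fraction were either. The outcome rested on single libraries: without *Mavs*-/- replicate 2 the genotypes separated with a difference of 107.8 bases, and without editing-deficient replicate 2 they separated with 83.7. With 2 libraries against 3, genotypes separate more readily than with 3 against 3. *Saa1* lay between the percentiles 90.5 and 96.0 of summed peak area among the genes with a peak in each RNase only library.

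**Figure D4:**
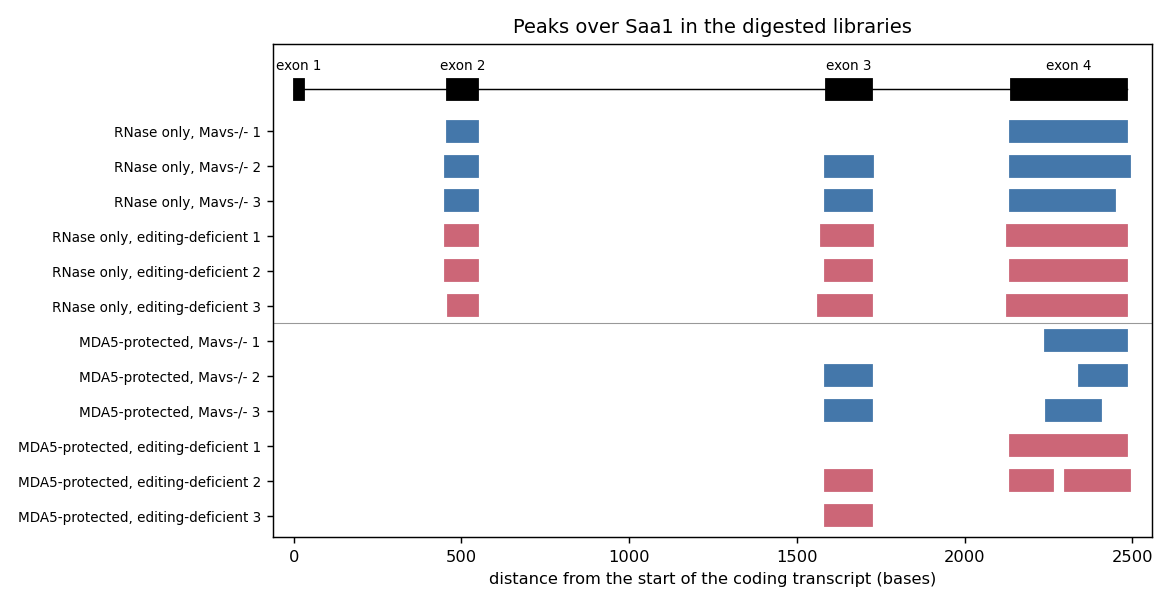
Own-strand peaks over *Saa1* in the 12 digested libraries, by distance in bases from the start of the coding transcript; black boxes are exons. The RNase only peaks follow exons 2, 3 and 4, with both edges within 15 bases of an exon edge in 15 of 17, and the MDA5-protected peaks, with both edges there in 5 of 10, lie over exon 3 and over all or part of exon 4.

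The *Saa1* peaks followed the exons of the spliced transcript. Exon 2 lay under a peak of 91 to 99 bases in all 6 RNase only libraries, exon 3 under a peak of 141 to 163 bases in 5, and exon 4 under a peak of 311 to 358 bases in 6. Both edges lay within 15 bases of an exon edge in 15 of these 17 peaks. The introns between them were covered over 3 to 37 bases only, at the edges of the exons, and exon 1, the shortest, had no peak. *Mavs*-/- replicate 1, the library with the lowest coverage, was the one without a peak over exon 3.

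In the MDA5-protected fraction *Saa1* peaks covered 245, 285 and 305 exonic bases in *Mavs*-/- and 348, 456 and 141 in editing-deficient liver. Every library had at least 1 of the 10 peaks, and the genotypes overlapped, with editing-deficient replicate 3 the lowest and replicate 2 the highest of the 6. Of the 10 peaks, 4 covered exon 3 and 6 lay over exon 4, of which 1, in editing-deficient replicate 1, held the whole exon, and exon 2 had none. Both edges lay within 15 bases of an exon edge in 5 of the 10 peaks, all 4 over exon 3 and 1 of the 6 over exon 4. Of the 1791 bases under these peaks, 99.5% also lay under RNase only peaks of the same genotype, and 9 of the 10 peaks lay inside them completely. The exon 3 peak had the same edges, chr7:46741256-46741396, in all 4 libraries that had it. The areas of 522.8 to 898.2 were close to the minimum, and no *Saa1* peak of this fraction reached an area of 1000. *Saa1* was the only member with an exonic peak in the MDA5-protected libraries as listed, before any subtraction. The study removed the bases under RNase only peaks from its MDA5 peaks and dropped remnants shorter than 10 bases. Only 9 of the 1791 bases lay outside RNase only peaks, all in 1 peak, so no *Saa1* peak would remain under that rule.

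The twin gene *Saa2* lies on the opposite strand and had no peak, so the letters that separate the pair matter here too. The coding sequences of *Saa1* and *Saa2* have the same length of 366 bases and are 95.1% identical, with 18 differing bases. Only 25 of the 535 stretches of 75 bases in the *Saa1* transcript occur unchanged in *Saa2*. The junctions of exons 2 and 3 and of exons 3 and 4, where the covered exons meet, are shown in the same way, with capitals at the bases that differ.
Saa1, exons 2 and 3: ACgaggctttccaaggggctggGgacatgt
Saa2, exons 2 and 3: GGgaggctttccaaggggctggAgacatgt
Saa1, exons 3 and 4: tgctgagaaaatcagtgatgGaagagagGC
Saa2, exons 3 and 4: tgctgagaaaatcagtgatgCaagagagAG
The first *Saa1* sequence joins chr7:46742432-46742446 to chr7:46741380-46741394 and the second joins chr7:46741256-46741270 to chr7:46740828-46740842 on the minus strand, and each junction differs from *Saa2* at 3 bases.

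Few genes had the pattern of *Saa1*. Of 6093 protein-coding genes with an exonic peak in any library, 30 (0.492%) had one in all 12 digested libraries, and 18 of these, *Saa1* included, had no Input peak. Among the 18 were *Muc3* and *Muc13*, which encode mucins, *Clca1*, a secreted goblet cell protein, *Guca2a*, which encodes guanylin, *Car1*, a carbonic anhydrase of colon and red cells, and *Epcam*, an epithelial adhesion molecule. The rest included *Ap1ar*, *Kif13a*, *Pdcd7*, *Mtcl1*, *Kcnmb4* and *Mmp17*, which are not markers of the intestine. All of these were named after their values were seen. A list of 30 intestinal epithelium markers, also written after the data had been seen and therefore given no test, was then counted. It holds 8 of the 18 genes. Of its 30 genes, 22 had an exonic peak in all 6 RNase only libraries and 25 in at least 1, while 5 had one in any Input library. Of these 5, *Tff3*, a trefoil peptide gene, had no Input peak in *Mavs*-/- and 83.8%, 63.1% and 67.1% of its exonic bases covered in editing-deficient liver, and *Aqp8*, a water channel gene, had 51.2%, 15.7% and 36.9% in *Mavs*-/- and none in editing-deficient liver. Which cells made the Input transcripts of these 5 genes was not tested.

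The intestinal list had 23 to 24 genes with a peak and 17936 to 26800 summed exonic bases in the *Mavs*-/- RNase only libraries, and 23 to 25 genes and 23568 to 31205 bases in the editing-deficient ones. In the MDA5-protected fraction it had 14 to 16 genes in *Mavs*-/- and 17 to 19 in editing-deficient libraries. Of all 21951 protein-coding genes, 711 to 1716 had an exonic peak in each RNase only library and 153 to 303 in each MDA5-protected one. *Retnlb*, *Guca2b*, *Fabp2*, *Reg3b* and *Reg3g* had no peak in any library. Over the same digested libraries, none of the 8 hepatocyte markers had a peak, and none of the 9 erythroid or 10 neutrophil markers. Of the 7 stellate and bile duct markers, *Des*, *Krt19* and *Epcam* had peaks in all 6 RNase only libraries and none in Input, and *Epcam* stands on both lists. The part of these intestinal and other transcripts in the *Saa1* peaks was not tested, and a digested library shows only what exceeds the Input of its genotype. The *Saa1* values are therefore those of libraries labelled as liver, and whether the RNA under them came from liver was not tested.

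**Figure D5:**
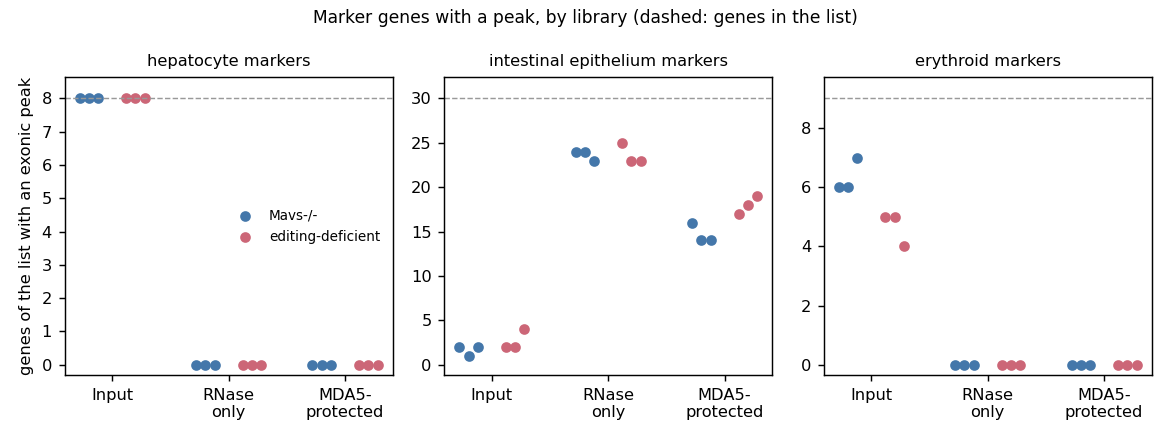
Number of genes with an exonic peak in each library for 8 hepatocyte, 30 intestinal epithelium and 9 erythroid markers (dashed lines), by fraction and genotype; each point is 1 library. Hepatocyte markers are complete in Input and absent from the digested lists, and intestinal markers are mostly in the digested lists. The intestinal list was written after the data had been seen.

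The remaining digested peaks at the 10 genes were few. *Saa3* (chr7:46711998-46715700, minus strand), made by macrophages and epithelia rather than hepatocytes, had a single RNase only peak of 240 bases at chr7:46712028-46712267 in editing-deficient replicate 1. It covered 237 exonic bases in exon 4 of a coding transcript other than the longest. *Hamp* had 1 RNase only peak of 114 bases, at chr7:30943363-30943476, and 1 MDA5-protected peak of 217 bases, at chr7:30943282-30943498, both in its first intron and both in editing-deficient replicate 3, the replicate number whose Input library ranked *Hamp* highest.

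*Crp* had no exonic peak after digestion, but 11 RNase only peaks in 4 libraries and 8 MDA5-protected peaks in 3 libraries lay within the long intron of its non-coding transcript. They began 92433 to 121781 bases past the end of the coding transcript, so they cannot be assigned to the C-reactive protein messenger. The RNase only peaks numbered 3 in *Mavs*-/- and 8 in editing-deficient liver and the MDA5-protected ones 2 and 6, and replicate 3 of *Mavs*-/- and replicate 1 of the editing-deficient libraries had none in either fraction. Over the whole genome, the RNase only libraries held 3150 to 5572 peaks in *Mavs*-/- and 5605 to 6094 in editing-deficient liver. The MDA5-protected libraries held 1180 to 1829 and 1636 to 2868. Of the 8 MDA5-protected peaks, 4 shared no base with RNase only peaks of their genotype. No peak was found on the opposite strand of any of the 10 genes, where all 192 peaks lay on the gene's own strand.

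The wider acute-phase response was read in Input from lists of related genes. Of 26 other positive acute-phase proteins, 24 had an Input peak, 4 were higher in every editing-deficient library (16.7%, against 17.8% of all genes tested) and 0 lower, with a median difference of 1.78 percentage points of exonic bases against 3.35 over all genes tested. *Lrg1*, a secreted leucine-rich glycoprotein, had 58.5%, 36.9% and 60.7% of its exonic bases covered in *Mavs*-/- and 89.3%, 88.6% and 89.1% in editing-deficient liver. *Mt2*, a metallothionein that binds zinc, went from 35.0%, 0% and 34.9% to 71.3%, 41.3% and 49.1%. The complement gene *C4b* had means of 81.4% and 95.2%, and the fibrinogen-like hepatokine gene *Fgl1* means of 11.2% and 20.2%.

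Of 17 genes of the cytokine signalling that drives the response, 10 had an Input peak, 5 were higher in every editing-deficient library (50% of those with a peak, against 17.8% of all genes tested) and 0 lower, with a median difference of 11.6 percentage points. Among the 10 with a peak, 8 had a higher and 2 a lower mean in editing-deficient liver. The cytokine genes *Il6*, *Il1b* and *Tnf* had no Input peak in either genotype. *Cebpb*, a transcription factor of acute-phase promoters, went from 0%, 34.8% and 67.0% to 76.2%, 78.5% and 76.1%. Its relative *Cebpd* and the interleukin-1 receptor gene *Il1r1* had no Input peak in *Mavs*-/- and means of 12.5% and 18.3% in editing-deficient liver. *Il6st*, which encodes the shared receptor gp130, had means of 14.6% and 31.3%, and the kinase gene *Jak1*, named after its values were seen, means of 0% and 10.7%. Each of the 5 genes higher in every editing-deficient library had the smallest exact permutation p that the design allows, 0.10.

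Negative acute-phase proteins, whose genes are turned down in inflammation, had Input peaks for all 10, with 1 higher in every editing-deficient library (10%, against 17.8% of all genes tested) and 0 lower. The higher one was *Fetub*, a liver protease inhibitor, with means of 56.7% and 71.7% of its exonic bases covered. Of 17 interferon-stimulated genes, 4 had an Input peak and none separated the genotypes, with 0 to 1 genes covered in *Mavs*-/- and 0 to 4 in editing-deficient libraries.

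Markers of the cells that share the liver were counted in the same way. Of 8 hepatocyte markers, *Cps1* and *Tat* were higher in every editing-deficient library (25%, against 17.8% of all genes tested), with *Tat*, an amino acid catabolic enzyme, at means of 63.0% and 93.1%. The list as a whole had a median difference of -1.25 percentage points, with a lower mean in editing-deficient liver for 4 of the 8 genes. *Alb*, *Apoa1* and *Ttr*, each with a lower mean, also stand on the negative acute-phase list. *Serpina1a* stands on the list of other positive acute-phase proteins, so the hepatocyte list is not independent of the acute-phase lists. Of 8 macrophage markers with an Input peak, *Cd5l* and *Marco* were higher (25%), with means for the scavenger receptor *Marco* of 10.7% and 34.3%, and 2 had a lower mean in editing-deficient liver. No list was tested as a whole. Of 9 neutrophil markers with a peak, *S100a9*, a calprotectin subunit, was lower (11.1%, against 3.02% of all genes tested), with 82.8%, 83.5% and 86.2% against 82.4%, 30.7% and 0%. The mean was lower in editing-deficient liver for 7 of these 9 genes and higher for 2. Of 4 endothelial markers with a peak, the cadherin gene *Cdh5* was higher (25%), with means of 15.4% and 33.9%. All 4 had a higher mean in editing-deficient liver, with a median difference of 9.81 percentage points against 3.35 over all genes tested. Among 2 stellate and bile duct markers with a peak, *Reln* was lower (50%, against 3.02% of all genes tested), with means of 19.1% and 10.2%. The other had a higher mean in editing-deficient liver. The part of these cell types in the coverage of the acute-phase genes was not tested.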

How the data were processed

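Peak lists of 18 stranded single-end libraries were used, 3 for each of 2 genotypes and 3 fractions. The authors trimmed reads (Trim Galore 0.6.6), aligned them to GRCm38 (NextGenMap) and called peaks strand by strand (Genrich 0.6.1), with Input as control for the digested libraries. The peak area, a signal value that grows with depth, and the −log10 p and adjusted p were deposited by the authors, as was the browser score. The smallest area was 500.008. Read counts are not part of these lists. The study describes the Input libraries as the more deeply sequenced ones, but read totals of single libraries were not used here, so counting error is not given.

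The exonic bases of each protein-coding gene (GENCODE M21, all transcripts, own strand) under peaks were counted. The whole areas of peaks touching an exon, intronic parts included, were summed and ranked within a library. The 3 libraries of each genotype were compared by a two-sided exact permutation test, with Benjamini-Hochberg adjustment over all genes with a peak in the fraction, and a gene was called when its genotypes did not overlap. limma 3.58.1 (R 4.3.3) on log2(bases + 10) was an alternative, and the steps were tested on simulated data. Alternatives were a minimum area of 1000, a −log10 adjusted p of at least 10, equal numbers of peaks, ignored strands, a minimum of 50% of the peak in exons, peaks within 200 bases joined, the longest coding transcript alone, and genes with peaks in at least 3 libraries.

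All 10 members were named, Adar and Mavs once, near-identical copies, and of each other list at most 4 genes that did not overlap in Input, by mean difference. *Jak1*, *Il6*, *Il1b*, *Tnf*, the genes with the pattern of *Saa1* and the digested-library markers were named outside this rule, after their values were seen. The same holds for the hepatocyte markers shared with the acute-phase lists. The members and lists were chosen with earlier results of these data known. One gene of the erythroid list was not found in the annotation, and *Hjv* was matched through its older symbol.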

Additional observations from a re-analysis of the deposited data

How the results depend on the processing

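The Input coverage called 1 member higher and 0 lower in all alternatives but 2: with at least 50% of the peak in exons 0 members were higher, since the wide *Hamp* peaks of 2 libraries then dropped out, and with limma 0 were higher. The difference of *Hamp* kept its call in 14 of 16 alternatives for coverage and in 12 of 12 for the area rank (differences of 49.2 to 74.2 percentiles). The alternatives of the rank did not include the rule of at least 50% of the peak in exons, under which *Hamp* lost its coverage call. Leaving out 1 library at a time gave 1 member higher and 0 lower for Input coverage, 0 to 1 higher for RNase only coverage (*Saa1*, without replicate 2 of either genotype), and 1 to 2 higher and 0 to 1 lower for the Input area rank. The added calls of the rank were *Hp* without *Mavs*-/- replicate 3 or editing-deficient replicate 3, *Itih4* and *Crp* without editing-deficient replicate 1, and *Saa4* without *Mavs*-/- replicate 2. With a minimum area of 1000, 2 members were higher by the rank (*Hp* was added), 0 members had an exonic MDA5-protected peak and *Saa1* had 0 of its 10. With a −log10 adjusted p of at least 10, *Saa1* kept 2 of them. The cause of these changes was not tested. The shares of all genes called with 1 library left out, or under the alternatives of the rank, are not given here, so the added calls have no background. With 2 libraries against 3, genotypes also separate more readily than with 3 against 3.

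Uncalled differences that changed sign were those of *Itih4* coverage with equal numbers of peaks (-29.3 bases), without *Mavs*-/- replicate 1 (-8) or 2 (-9.5), and without editing-deficient replicate 1 (-32.8) or 2 (-3.33), of its area rank at the stricter adjusted p (-0.31), with equal numbers of peaks (-0.20) and by its strongest peak (-0.17), and of *Hp* coverage with at least 50% of the peak in exons (-54.7) and without *Mavs*-/- replicate 1 (-0.33). *Saa4* coverage, also uncalled, changed sign without *Mavs*-/- replicate 3 (82.3 bases). *Hamp* was at -14 bases with at least 50% of the peak in exons. Leaving out 1 library at a time, the coverage differences ranged from -383.7 to 82.3 bases for *Saa4*, from -0.33 to 1.17 for *Hp* and from -32.8 to 50.2 for *Itih4*.

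With equal numbers of peaks per library, 11.6% of all genes were higher and 7.17% lower in Input, against 17.8% and 3.02%, and *Hamp* was still called. The labels link same-numbered libraries of the genotypes only by their number. In Input the correlations of their deviations ranged from -0.04 to 0.01, and those of differently numbered libraries from -0.06 to 0.06. These correlations cannot show whether same-numbered libraries were prepared together. With the replicate number as a block, 1 member was higher and 0 lower in Input coverage and 0 in RNase only coverage, and 3 pairs allow no p under 0.25. Depth limits what absence of a peak can mean, since Input libraries differed in their number of peaks.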
